A study of Mus musculus with 4 samples.

Results

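In pancreas that overexpressed c-Myc in acinar cells, 1197 of the 5464 c-Myc peaks stood beside a Ptf1a peak without touching it. They were chosen by position alone, from the autosomal peaks of both deposited lists on mouse build mm9: each overlapped no Ptf1a peak by even 1 bp and had at least 1 Ptf1a peak within 10 kb, counted from edge to edge. The other Myc peaks were 2254 that overlapped a Ptf1a peak, 1966 that were farther than 10 kb from any, and 47 that lay off the autosomes. Chromatin immunoprecipitation followed by sequencing (ChIP-seq), which recovers the DNA bound by a protein through an antibody against it, was carried out on pancreas of mice aged 8 weeks. All animals were Ela1-myc mice, in which the promoter of the acinar gene Ela1 drives a c-Myc transgene, so no group without the transgene was compared. For Ptf1a the chromatin of 1 mouse was used, for c-Myc that of 3 mice, pooled into 1 library. The lists cannot separate c-Myc made by the transgene from that made by the animal's own gene, nor acinar from other cells of the organ.

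Ptf1a is a basic helix-loop-helix factor of pancreatic acinar cells. As part of the PTF1 complex, with an E protein and Rbpjl, it binds E-box and TC-box sequences at genes of digestive enzymes. c-Myc belongs to the wider helix-loop-helix family, pairs with Max, prefers another form of the E-box and is known for its binding at active promoters of genes for growth and ribosome production. Sites where a Myc peak is near a Ptf1a peak but not on it are places where the peaks of the factors were called apart on the same short stretch of chromatin.

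With 1 library per factor, replicate error could not be estimated and no test between groups was made. Intervals are 95% intervals for counting error (Wilson for shares, exact binomial for medians), and neighbouring peaks are not independent. The score is the number that the peak caller attached to a peak, on a scale that no label or header gives, and was compared within a list only. The depth of the libraries is unknown, so a Ptf1a peak that is missing from the list under a Myc peak may have been too weak to be called. Gene positions and sequence of the build used were not analysed here, and sites are therefore given by position.

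Most of these Myc peaks were only a few kilobases from the Ptf1a peak. Of 5417 autosomal Myc peaks they made up 22.1% (21.0 to 23.2%), and of the 3163 that did not overlap a Ptf1a peak 37.8% (36.2 to 39.5%). The median distance to the nearest Ptf1a peak was 2708 bp (quartiles 953 and 5834 bp) from edge to edge and 3420 bp between midpoints. These distances follow in part from the rule and are given as a description. A total of 169 peaks (14.1%) were less than 500 bp away, 146 (12.2%) between 500 bp and 1 kb, 183 (15.3%) between 1 and 2 kb, 315 (26.3%) between 2 and 5 kb, and 384 (32.1%) between 5 and 10 kb. Per 100 bp of distance, the number of peaks was 33.8 in the nearest band, 10.5 between 2 and 5 kb and 7.68 in the farthest. The counts were therefore densest right beside the Ptf1a peak, although its edges were what kept them out of the overlapping set. Such crowding was not particular to these Myc peaks. Of the autosomal Ptf1a peaks with another Ptf1a peak within 10 kb, 18.6% (17.8 to 19.4%) had it less than 500 bp away.

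The Myc peaks that did overlap a Ptf1a peak offer a comparison, since many of them had a further Ptf1a peak nearby. Of 2254 such peaks, 1314 (58.3%) had one within 10 kb that they did not touch, at a median distance of 2149 bp (95% interval 1913 to 2410 bp). That was shorter than the 2708 bp (2451 to 3024 bp) of the Myc peaks that stood beside Ptf1a. The sets were not chosen alike, however. All of the 1314 had a further Ptf1a peak besides the one they overlapped, while 729 of the 1197 had only 1 Ptf1a peak within 10 kb. Beside Ptf1a the median distance was 3924 bp with 1 Ptf1a peak in reach, 2282 bp with 2, 1368 bp with 3 and 904 bp with 4 or more. The share in the farthest band, 5 to 10 kb, was 32.1% (29.5 to 34.8%) for the peaks beside Ptf1a and 23.4% (21.2 to 25.7%) for the next neighbours of overlapping peaks. In the nearest band, under 500 bp, the shares were 14.1% (12.3 to 16.2%) and 15.8% (14.0 to 17.9%), with intervals that overlap.

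**Figure D1:**
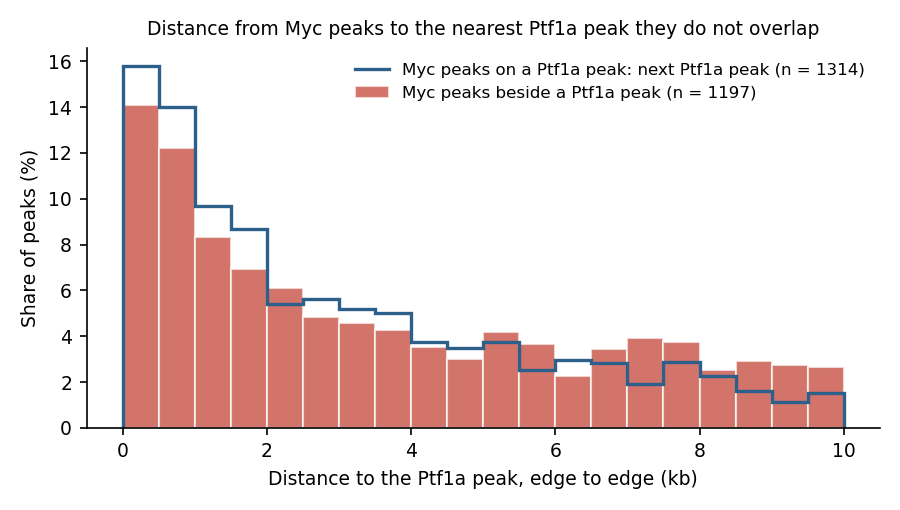
Distance from autosomal Myc peaks to the nearest Ptf1a peak that they do not overlap, in kb from edge to edge, as the share of peaks in each 0.5 kb band. Bars are the 1197 Myc peaks beside a Ptf1a peak and the line is the 1314 overlapping Myc peaks with a further Ptf1a peak within 10 kb. Both are highest in the first band, and the bars lie above the line in every band from 6.5 kb on.

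At the near limit, the peaks differed little from overlapping ones in position. On chromosome 1 the Myc peak at 65159077 to 65159896 (score 85.1) began at the base after the end of a Ptf1a peak (score 58.37). On chromosome 15 the Myc peak at 78962611 to 78963408 lay 2 bp from a Ptf1a peak, and on chromosome 17 that at 5958955 to 5959685 lay 5 bp from one. The next were on chromosome 11 at 98063037 to 98063699, 7 bp away, and on chromosome 8 at 106897949 to 106898559, 10 bp away. The midpoints of these 5 pairs were 574 to 712 bp apart. Just inside the overlapping set were Myc peaks on chromosome 16 at 98071953 to 98072942, which shared 4 bp with a Ptf1a peak, and on chromosome 15 at 88958435 to 88959379, which shared 5 bp. The next 3, on chromosomes 5, 4 and 9, shared 7, 13 and 19 bp.

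The far limit cut through a continuous range as well. The outermost member, on chromosome 11 at 4117648 to 4118228 (score 51.63), was 10000 bp from a Ptf1a peak of score 434.58. The others at this end lay 9979, 9977, 9975 and 9970 bp away, on chromosomes 11, 17, 15 and 1. The Myc peaks next beyond the limit stood 10003 bp (chromosome 1, 135123305 to 135124199), 10012 bp (chromosome 5, 151062121 to 151062832), 10016 bp (chromosome 16, 30145211 to 30145973), 10020 bp (chromosome 13, 21325540 to 21326750) and 10062 bp (chromosome 13, 63415884 to 63416410) from Ptf1a.

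In median score, the Myc peaks beside Ptf1a were close to the Myc peaks far from it and below those on it. Their median score was 71.6 (95% interval 69.3 to 74.0; quartiles 58.5 and 101), against 71.4 (69.8 to 73.8) for peaks farther than 10 kb and 79.8 (77.4 to 81.4) for overlapping peaks. High scores differed more, with a 90th percentile of 146 beside Ptf1a, 153 far from it and 171 on it. Of the 1197 peaks, 307 had a score of at least 100, a share of 25.6% (23.3 to 28.2%), where the share over all autosomal Myc peaks was 28.7%. It was 25.1% (23.2 to 27.0%) for the far and 33.5% (31.6 to 35.5%) for the overlapping peaks. Scores below 60, near the lowest of the list, were found for 29.4%, 29.2% and 21.4% of the peaks beside, far from and on Ptf1a. Among the 100 highest-scoring autosomal Myc peaks 14 stood beside a Ptf1a peak, 49 on one and 37 far from any. The numbers were 83, 256 and 161 among the 500 highest, and 2, 2 and 6 among the 10 highest. The peaks beside Ptf1a thus made up 14.0% (8.53 to 22.1%) of the 100 and 16.6% (13.6 to 20.1%) of the 500 highest. Their share of all autosomal Myc peaks was 22.1%.

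**Figure D2:**
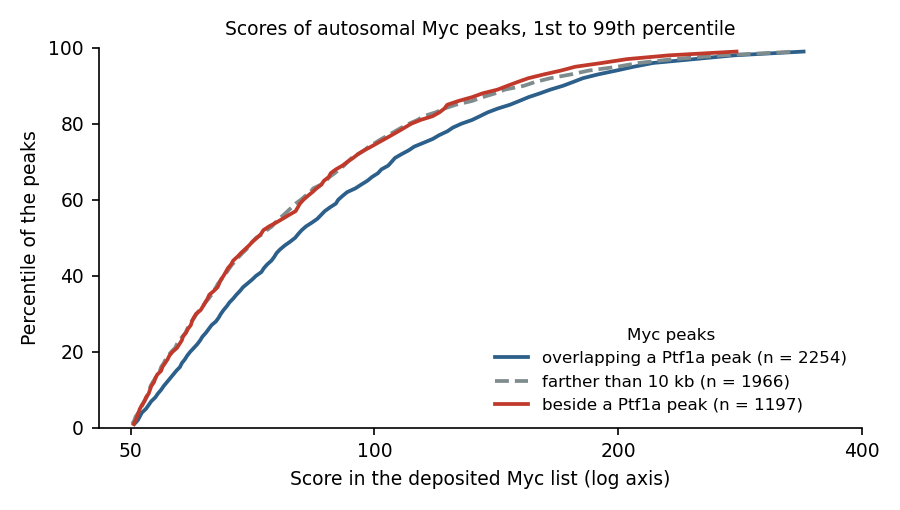
Scores of autosomal Myc peaks in the deposited list (log axis) against their percentile, from the 1st to the 99th, for peaks beside (1197), on (2254) and farther than 10 kb from (1966) a Ptf1a peak. The curves of the peaks beside and far from Ptf1a run together up to scores of about 100 (medians 71.6 and 71.4), and that of the overlapping peaks lies to the right (79.8).

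Peak width moved with both the score and the share of peaks on Ptf1a, so the classes were also set side by side among peaks of similar width. The median width was 812 bp (797 to 826 bp) beside Ptf1a, 820 bp (808 to 828 bp) far from it and 860 bp (851 to 870 bp) on it. With the Myc peaks ranked by width and cut into 5 equal parts, the share of peaks that stood beside Ptf1a was 22.9%, 26.8%, 22.3%, 21.0% and 17.4% from the narrowest to the widest. Over the same parts the overlapping share went from 35.4% to 49.0%. Within each part the median scores of the 3 classes were closer than over the whole list: 57.8 beside, 59.0 on and 56.8 far in the narrowest part, then 65.2, 67.0 and 64.5, then 75.0, 73.0 and 70.1, then 83.8, 87.4 and 85.5, and 127, 131 and 129.8 in the widest. The peaks beside Ptf1a had the middle median in 2 parts, the highest in 1 and the lowest in 2.

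The score of these Myc peaks did not move with how near Ptf1a was. Their median score was 71.5 when the Ptf1a peak was less than 500 bp away, 71.7 between 500 bp and 1 kb, 68.6 between 1 and 2 kb, 72.3 between 2 and 5 kb and 71.9 between 5 and 10 kb. Across the 1197 peaks, which share 1 Myc library, Spearman's rho between score and distance was 0.01, and that between the Myc score and the score of the nearest Ptf1a peak was 0.05.

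The strongest of them stood in varied surroundings. The highest score, 545.48, belonged to the Myc peak on chromosome 16 at 4557568 to 4559635, which ranked 6 among autosomal Myc peaks. It ended 28 bp before a narrow Ptf1a peak of 306 bp (score 107.73), the only Ptf1a peak within 10 kb. On chromosome 7 the peak at 17368474 to 17370459 (score 509.41, rank 9) had 3 Ptf1a peaks on the same side, the nearest 7099 bp away with a score of 244.92, and that Ptf1a peak carried a Myc peak of its own. The peak on chromosome 10 at 121061839 to 121064275 (score 440.23) had a strong Ptf1a peak, score 1154.25, but 9071 bp away.

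A further strong Myc peak lay right beside one of the weakest Ptf1a peaks: on chromosome 6 at 83002691 to 83004177 the Myc score was 433.68, and the Ptf1a peak 209 bp away scored 52.66. On chromosome 5 the peak at 149210026 to 149211238 (score 430.4) stood between Ptf1a peaks, 1096 bp away on one side (score 168.79) and 4203 bp on the other (score 634.2). The peak on chromosome 1 at 135027034 to 135028073 (score 339.65) was flanked too, at 2394 and 5823 bp. The remaining 4 of the 10 strongest were found on chromosome 18 (46757316 to 46758632, score 343.32), chromosome 10 (126958715 to 126959820, score 325.34), chromosome 6 (67217576 to 67218853, score 312.87) and chromosome 7 (124429437 to 124430286, score 308.89). Their nearest Ptf1a peaks were 7625, 8427, 577 and 7208 bp away. Of the 10, only those on chromosome 7 at 17368474 and on chromosome 6 at 67217576 had a Ptf1a neighbour that carried another Myc peak.

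The Ptf1a peaks nearest to these Myc peaks had slightly lower scores than their list as a whole. The 1197 Myc peaks had 1088 different Ptf1a peaks as their nearest, of which 989 served 1 Myc peak, 90 served 2, 8 served 3 and 1 served 4. The median Ptf1a score of the 1088 was 107 (95% interval 98.0 to 116), against 116 (114 to 118) over all 17423 autosomal Ptf1a peaks and 177 (168 to 188) over those that overlapped a Myc peak. A score of 100 or more was found for 52.4% (49.4 to 55.3%) of the 1088, where the share over all autosomal Ptf1a peaks was 56.7%. All 1731 Ptf1a peaks within 10 kb were closer to the list, with a median of 113 (107 to 120.2) and a share of 55.1% (52.8 to 57.4%). The median width of the 1088, 511 bp (500 to 522 bp), was near the 516 bp of the whole list.

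Ptf1a peaks less than 500 bp from the Myc peak had the lowest median score of the distance bands. At less than 500 bp the median score of the nearest Ptf1a peak was 88.2 (quartiles 61.2 and 171), while in the 4 wider bands it was 113, 114, 110.0 and 111. The quartiles of the band from 500 bp to 1 kb were 70.5 and 277, so the ranges overlapped widely. Across the 1197 Myc peaks, Spearman's rho between the distance and the score of the nearest Ptf1a peak was 0.05. The median width of the Ptf1a peak in the nearest band was 500 bp, within the range of the others, 499.5 to 529 bp. The median score of the Myc peaks themselves, 71.5 in that band, had no such step.

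Most of the neighbouring Ptf1a peaks carried no Myc peak themselves, although the share that did was above that of the whole list. For 232 of the 1197 Myc peaks, 19.4% (17.2 to 21.7%), the nearest Ptf1a peak overlapped another Myc peak, where the share over all autosomal Ptf1a peaks was 13.5%. Ptf1a peaks that stand in groups overlap Myc more often in general, 15.9% (15.1 to 16.6%) of those with another Ptf1a peak within 10 kb against 10.9% (10.2 to 11.6%) of those alone. Split the same way, the nearest Ptf1a peak overlapped another Myc peak for 21.7% (18.4 to 25.3%) of the Myc peaks when it had Ptf1a company and for 17.5% (14.8 to 20.6%) when it stood alone, so both values were above those of the list. The further Ptf1a peaks next to overlapping Myc peaks gave nearly the same share as the Ptf1a peaks studied here, 19.8% (17.7 to 22.0%). From the nearest to the farthest of the 5 distance bands the share was 18.3% (13.2 to 24.9%), 26.0% (19.6 to 33.7%), 21.9% (16.5 to 28.4%), 20.6% (16.5 to 25.4%) and 15.1% (11.9 to 19.0%), with no steady order.

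Counting every Ptf1a peak within 10 kb, 319 of the Myc peaks (26.6%) had a neighbour that carried another Myc peak and 878 (73.4%, 70.8 to 75.8%) had none. A Ptf1a peak without Myc was the usual case, since 13.5% of all autosomal Ptf1a peaks carried a Myc peak. Among the 1731 different Ptf1a peaks within 10 kb of these Myc peaks the share was 19.8% (18.0 to 21.8%). At the 878 sites the peaks of the factors were apart throughout the 10 kb on either side of the Myc peak. The 878 had a median score of 71.9 (69.2 to 75.5) and the 319 of 70.4 (66.5 to 76.0). The nearest Ptf1a peaks that carried another Myc peak had higher scores, with a median of 157 (129 to 179; 212 peaks), than those that did not, 98.4 (92.2 to 108; 876 peaks). The same order was seen in the whole Ptf1a list, 177 (168 to 188) against 111 (109 to 113), so the neighbours without a Myc peak scored below Ptf1a peaks of that kind in general. A score of 100 or more was found for 49.4% (46.1 to 52.7%) of the former and 55.0% (54.2 to 55.8%) of the latter.

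The strongest Ptf1a neighbours illustrate both arrangements. On chromosome 6 the Myc peak at 30589962 to 30591614 (score 123.77) began 263 bp after a Ptf1a peak of score 3100.0, at 30588141 to 30589698, which carried another Myc peak and was 1 of 4 Ptf1a peaks within 10 kb. On chromosome 8 a Ptf1a peak at 108457389 to 108458176 (score 2611.56, rank 24) carried no Myc peak, yet it was the nearest to 3 of them. These followed it at 108458790 to 108459705, 108459931 to 108461370 and 108462009 to 108463087, at distances of 613, 1754 and 3832 bp and with scores of 68.74, 163.48 and 112.97. The strongest of the 3 was the middle one. On chromosome 11 the Myc peak at 78363538 to 78364745 (score 75.41) lay 905 bp from a Ptf1a peak of score 2369.58 and had 6 Ptf1a peaks and 4 other Myc peaks within 10 kb, all 4 of them on Ptf1a.

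Most of the Myc peaks had a lone Ptf1a neighbour. Exactly 1 Ptf1a peak was found within 10 kb of 729 (60.9%, 58.1 to 63.6%), 2 of 280 (23.4%), 3 of 116 (9.69%) and 4 or more of 72. Ptf1a peaks lay on both sides of 236 Myc peaks (19.7%, 17.6 to 22.1%), which is 50.4% of the 468 that had 2 or more. The nearest Ptf1a peak was at the lower coordinates for 613 and at the higher ones for the others, a share of 51.2% (48.4 to 54.0%). Myc scores hardly differed between sparse and crowded surroundings: the median was 71.9 with 1 Ptf1a peak, 71.0 with 2, 71.8 with 3 and 71.7 with 4 or more (95% interval 61.9 to 86.0). It was 75.1 (68.8 to 81.4) with Ptf1a on both sides and 70.6 (68.2 to 73.2) with Ptf1a on 1 side.

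The 5 most crowded of these sites had Myc scores from 51.15 to 122.73. The Myc peak on chromosome 8 at 129427945 to 129428560 had a score of 54.55 and 10 Ptf1a peaks within 10 kb, at 455 to 9509 bp and with scores from 54.39 to 1800.04, of which 2 carried a Myc peak. Its immediate neighbours on either side, at 455 and 635 bp, scored 55.2 and 160.39 and carried none. On chromosome 9 the Myc peak at 63559442 to 63560123 (score 60.74) had 8 Ptf1a peaks and no other Myc peak within 10 kb. On chromosome 1 the one at 169193690 to 169194209 (score 51.15) also had 8, and 3 of its 4 neighbouring Myc peaks were on Ptf1a. Those on chromosome 12 at 103008234 to 103009136 (score 77.06) and on chromosome 5 at 66462607 to 66463401 (score 122.73) had 7 and 6. Only the last of the 5 had a score above 100.

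Many of the Myc peaks beside Ptf1a also had Myc company. Another Myc peak lay within 10 kb of 497, a share of 41.5% (38.8 to 44.3%), where the share over all autosomal Myc peaks was 27.7%. It was 30.0% (28.1 to 31.9%) for overlapping and 16.8% (15.2 to 18.5%) for far Myc peaks. The rule bears on these shares, since it asks for a Ptf1a peak nearby and Myc peaks are often on one. Among overlapping Myc peaks that also had a further Ptf1a peak within 10 kb the share was 42.5% (39.9 to 45.2%), close to that of the peaks beside Ptf1a, and among those without one 12.4% (10.5 to 14.7%). Beside Ptf1a it was 33.9% (30.5 to 37.4%) with 1 Ptf1a peak in reach and 53.4% (48.9 to 57.9%) with 2 or more. The neighbour was a Myc peak on Ptf1a for 317 of the 1197, another Myc peak beside Ptf1a for 221 and a far one for 21, and some had more than 1 kind.

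Joined through Ptf1a peaks at most 10 kb from them or from one another, the 1197 Myc peaks fell into 1041 groups. In 910 groups the Myc peak was the only one of its kind, 111 groups held 2, 16 held 3, 3 held 4 and 1 held 5. The group of 5 lay on chromosome 5 at 113564881 to 113584653, a stretch of 19.8 kb with 5 Ptf1a peaks (scores 73.39 to 208.85). Its Myc peaks had scores of 84.36, 59.52, 85.53, 53.57 and 205.1 in order of position, and lay 2629, 1869, 50, 831 and 690 bp from Ptf1a. A Myc peak of score 63.72, at 113573332 to 113574183, was the only one in the stretch to overlap Ptf1a.

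The 3 groups of 4 showed different layouts. On chromosome 15 at 78961679 to 78972191, 2 Myc peaks (scores 113.63 and 94.08) preceded 2 Ptf1a peaks (127.84 and 292.44), and 2 more (80.05 and 63.72) followed them 4630 and 6232 bp away. On chromosome 8 at 87489573 to 87515407 there were likewise 2 Myc peaks before (121.64 and 65.81) and 2 after (107.48 and 121.9) a pair of Ptf1a peaks, but with 3904 to 9292 bp between the factors. On chromosome 7 at 52959274 to 52974167 all 4, with scores from 58.11 to 104.21, stood around 1 weak Ptf1a peak (72.87) that carried a Myc peak of its own (65.85). No Ptf1a peak carried Myc in the groups on chromosomes 15 and 8.

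**Figure D3:**
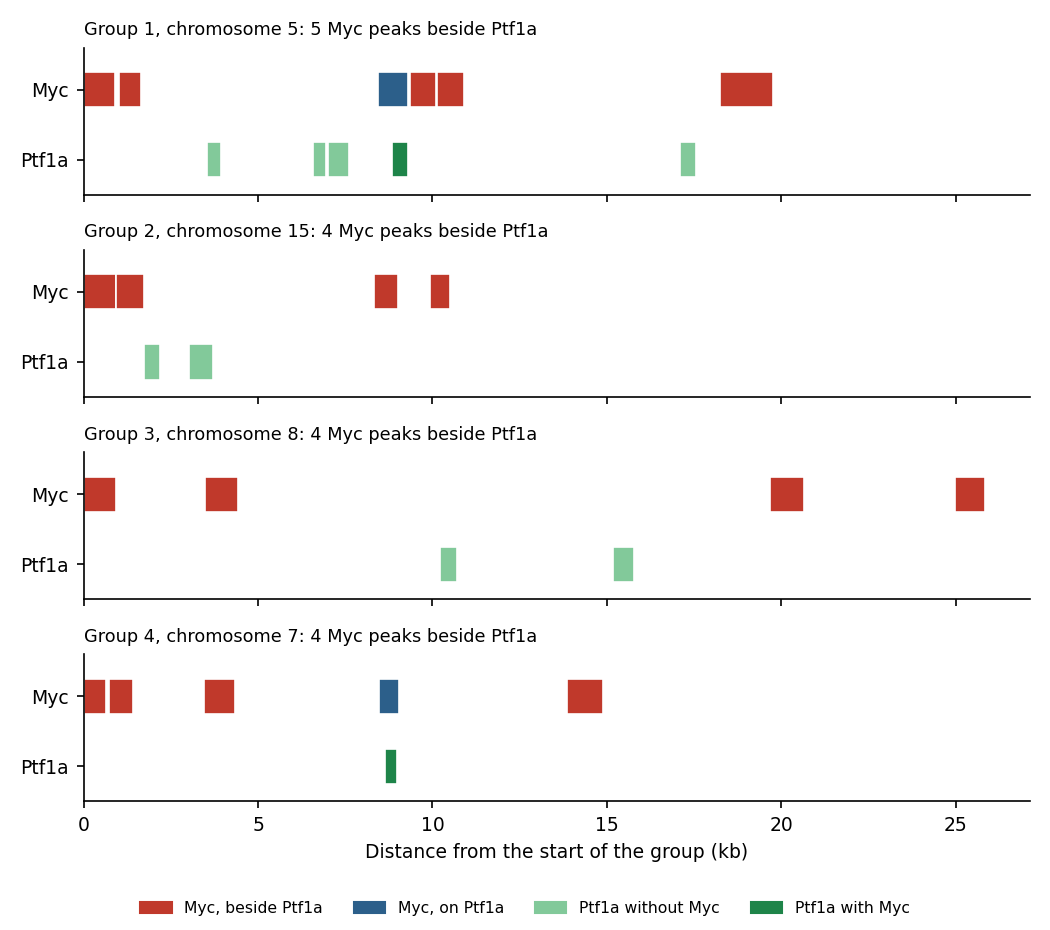
Peak positions in the 4 groups with the most Myc peaks beside Ptf1a, as the distance in kb from the start of each group. Boxes are drawn to their width: Myc peaks beside Ptf1a in red, Myc peaks on Ptf1a in blue, Ptf1a peaks in green, dark where they carry Myc. The group on chromosome 5 has 5 red boxes over 19.8 kb, and the Ptf1a peaks of the groups on chromosomes 15 and 8 have no Myc peak above them.

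Beyond the 10 kb that the rule used, the surroundings of these Myc peaks were like those of Myc peaks on Ptf1a. The rule still bears on them, since both classes were chosen for a Ptf1a peak within 10 kb and the far class for none. Of all autosomal Ptf1a peaks, 52.0% (51.2 to 52.7%) had another within 10 kb. How much of the differences beyond 10 kb follows from the rule was not tested. Between 10 and 50 kb away, 76.4% (73.9 to 78.7%) of the Myc peaks beside Ptf1a had a Ptf1a peak, where the share over all autosomal Myc peaks was 70.6%. The share was 76.0% (74.2 to 77.8%) for overlapping and 60.9% (58.7 to 63.0%) for far Myc peaks. The mean number of Ptf1a peaks in that range was 2.29 ± 2.35 (SD over 1197 peaks) beside Ptf1a, 2.42 ± 2.51 (SD over 2254) on it and 1.37 ± 1.72 (SD over 1966) far from it. The spread between sites was thus as large as the means, and the classes overlapped widely. From 50 to 100 kb the means were 2.05, 2.14 and 1.65.

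Other Myc peaks followed a similar order with smaller differences. Between 10 and 50 kb, 47.8% (45.0 to 50.6%) of the Myc peaks beside Ptf1a had another Myc peak, against 46.1% (44.0 to 48.2%) of the overlapping and 39.3% (37.2 to 41.5%) of the far ones. From 50 to 100 kb the shares were 44.9% (42.1 to 47.8%), 43.4% (41.4 to 45.5%) and 41.8% (39.6 to 44.0%), with intervals that overlap. Over the whole list the Myc peaks beside Ptf1a were thus nearer to the far class in median score. Among peaks of similar width this was so in every part but the third, with the classes closer together. In Ptf1a surroundings they were nearer to the overlapping class, which like them was chosen for a Ptf1a peak in reach. Neither difference was tested.

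**Figure D4:**
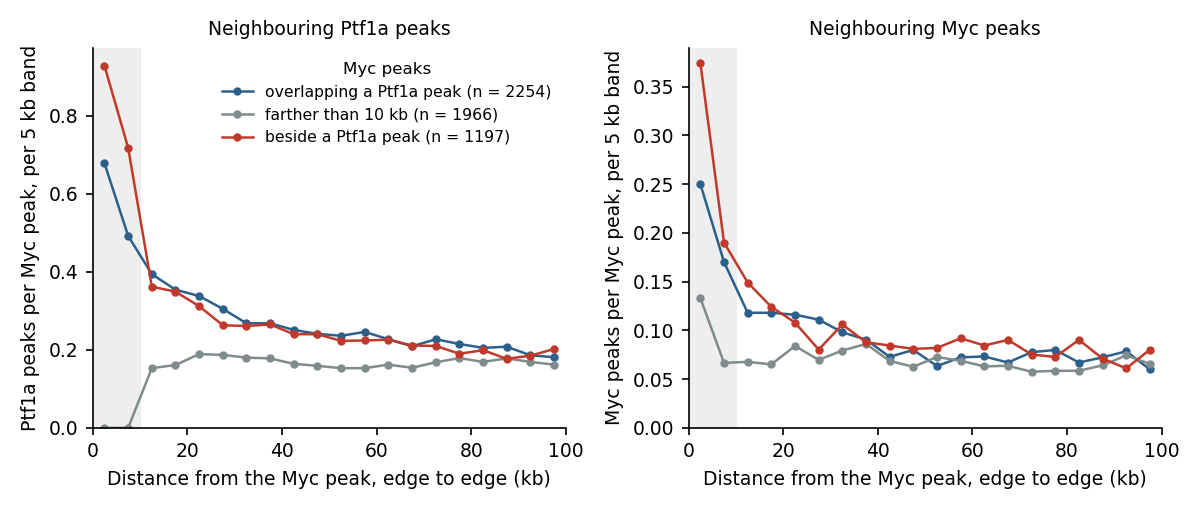
Mean number of Ptf1a peaks (left) and other Myc peaks (right) per Myc peak, in 5 kb bands of edge-to-edge distance up to 100 kb, for Myc peaks beside, on and farther than 10 kb from Ptf1a; touched peaks are left out, and the grey area is the 10 kb that the rule used. From 10 to 15 kb the Myc peaks beside and on Ptf1a had 0.362 and 0.394 Ptf1a peaks per peak and the far ones 0.153.

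All 19 autosomes held such Myc peaks. Chromosome 11 held the most, 121 of its 480 Myc peaks (25.2%). As a share of the chromosome's Myc peaks the highest values were 28.8% (23.4 to 34.8%) on chromosome 17, 28.7% (23.7 to 34.3%) on chromosome 8 and 28.4% (22.5 to 35.1%) on chromosome 19. The lowest were 13.3% (9.13 to 19.1%) on chromosome 18, 14.3% (9.87 to 20.2%) on chromosome 14 and 16.7% (11.9 to 22.8%) on chromosome 16. The number of Ptf1a peaks to be near differed too, 11.3 per Mb on chromosomes 11 and 19, 7.80 on 17 and 7.79 on 8, against 6.53 on 18, 5.67 on 14 and 6.02 on 16. Yet chromosomes 4, 5, 7 and 9, with 7.85, 7.79, 7.56 and 7.83 Ptf1a peaks per Mb, had shares of 20.6%, 19.7%, 17.8% and 20.9%, below that of all autosomes. Across the 19 autosomes, which share both libraries, Spearman's rho between density and share was 0.58, given as a description, and the part of density in the shares was not tested. Median distances to Ptf1a ran from 1894 bp on chromosome 5 to 3818 bp on chromosome 13, and median Myc scores from 60.5 on chromosome 18 (24 peaks) to 77.2 on chromosome 6 (79 peaks).

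**Figure D5:**
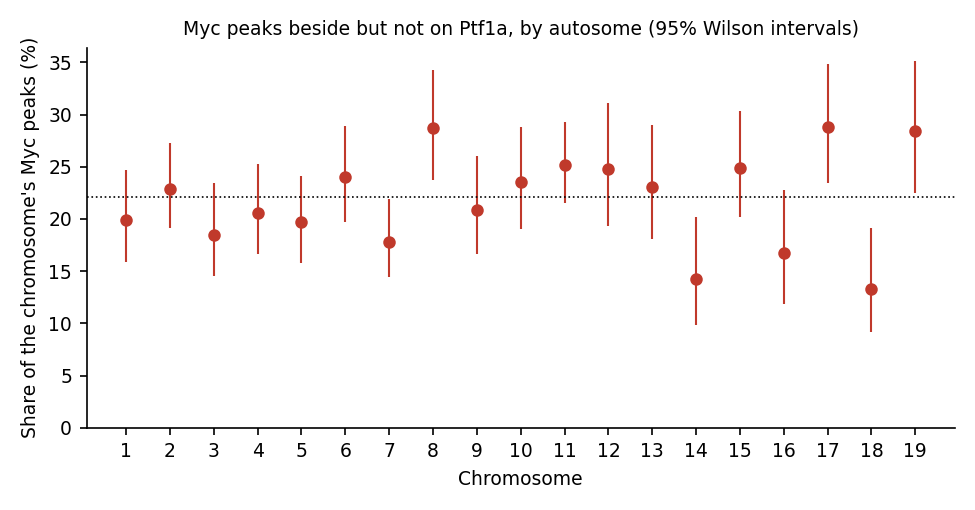
Share of each autosome's Myc peaks that stand beside but not on a Ptf1a peak, in percent, with 95% Wilson intervals; the dotted line is the share over all autosomes, 22.1%. The intervals of chromosomes 8, 17 and 19 begin above the line, and those of chromosomes 7, 14 and 18 end below it.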

How the data were processed

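The analysis used the peak lists of the 2 ChIP libraries. The 2 inputs were not analysed here. MACS 1.4.1, BWA 0.5.9-r16, FastQC 0.9.4 and CASAVA 1.8 are named, with build mm9, in the submitters' processing notes. What each did, with which parameters and whether against an input was not given in the sources used here. Scores are as the authors deposited them, with a lowest value of 50.0 and no stated scale, and depth is unknown. Positions were read as BED and are printed counted from 1. Distances are the bases between peak edges. Of several Ptf1a peaks the nearest was taken, with ties broken by score. Python 3.11.15, numpy 2.4.6, pandas 2.3.3, scipy 1.17.1, networkx 3.6.1 and matplotlib 3.10.9 were used. The search was tested on 3000 simulated Myc peaks, all of which got their known class. Named peaks were the 10 with the highest Myc score, the 5 nearest, the 5 outermost, the 5 with the most Ptf1a peaks, the 5 with the strongest Ptf1a neighbour, those just outside each limit, and the 3 largest groups, to which the fourth was added because it tied. The peaks and measures were chosen with earlier results of these data known. Gene starts, gene lists and motifs were planned and not analysed here, because the genes at hand are placed on GRCm38.p6 and builds were not mixed.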

Additional observations from a re-analysis of the deposited data

How the results depend on the processing

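Under 10 alternatives, 36 of 69 values stayed within the 95% interval of the value reported (for the number of peaks, within 1.5 times), and 33 did not. The number of Myc peaks beside Ptf1a was 277 with scores of 100 or more in both lists, 307 with that limit on the Myc list and 55 among each list's 1000 highest, settings that keep fewer peaks. Other settings gave 813 (5 kb) to 1666 (20 kb). With only Ptf1a peaks of 100 or more it was 1012, of which 767 were among the 1197 and 245 had overlapped a weaker Ptf1a peak. The median distance was 1466 bp with a limit of 5 kb, 5173 bp with 20 kb, 3540 bp with scores of 100 or more in both lists, 3379 bp with that limit on Ptf1a, 4894 bp among the 1000 highest and 2348 bp when only 50% overlap left a peak out. The median score was 134, 133 and 180.0, and the median width 1000, 971 and 1124 bp, with the score limit on both lists, on Myc, and among the 1000 highest, settings that select by score; with the limit on Ptf1a the width was 827 bp. Nearest Ptf1a peaks with another Myc peak made up 17.1% by midpoints, 17.1% with 500 bp peaks, 17.0% with 50% overlap, 10.5% with scores of 100 or more in both lists, 8.79% with that limit on Myc and 23.9% on Ptf1a. Ptf1a on both sides was found for 14.3% with 5 kb, 26.7% with 20 kb, 13.0% with the limit on both lists, 15.1% on Ptf1a and 1.82% among the 1000 highest. Another Myc peak in reach was found for 35.9% with 5 kb, 50.3% with 20 kb, 20.9% with the limit on both lists, 18.9% on Myc, 45.8% on Ptf1a and 23.6% among the 1000 highest. The matching shares over the whole lists, 13.5% of Ptf1a peaks with a Myc peak and 27.7% of Myc peaks with another, were not recomputed under the alternatives. The shares under the alternatives therefore cannot be set against them. No replicate could be left out. No paired analysis was possible because there was 1 library per factor. Alternatives for gene starts and motifs were not run.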

Other observations

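The X chromosome lay outside the autosomal rule. Of its 45 Myc peaks, 6 overlapped one of the 199 Ptf1a peaks on X, 5 stood beside one within 10 kb and 34 were farther away. The strongest of the 5 was at 71167013 to 71168054 (score 114.0), 6336 bp from a Ptf1a peak of score 59.82. The one nearest to Ptf1a, at 100676388 to 100677515 (score 89.79), was 3276 bp from a Ptf1a peak of score 113.16. The others had Myc scores of 65.62, 53.65 and 56.61 at 3767, 4800 and 9671 bp. None of the 5 was closer than 3 kb, and with 5 peaks no comparison with the autosomes was made.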
